A study of Mus musculus with 20 samples.

Results

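The visceral fat of HF pregnant mice, which were fed a high fat diet and were late in gestation, was compared with that of control non pregnant mice, which had neither the diet nor a pregnancy. The arrays were chosen by their titles alone and make up 10 of the 20 arrays in the study, from 5 mice of each group, each mouse on an array of its own. All animals were female C57BL/6J mice with no genetic alteration stated. The HF pregnant mice ate a diet with 58% fat (D12331) from before mating and were killed near the end of gestation (E18.5). The control non pregnant mice ate a diet with 10% fat (D12328). The E18.5 label is carried by all 20 mice, also those that were not pregnant, and the exact age at collection is not stated. Per the methods, the females came from different litters, began the diets when young and were fed for weeks before mating. The diets differ in their sugar and starch as well as in fat, so that a change with the HF diet is a change with the whole diet. The remaining groups, HF non pregnant and control pregnant, entered the fit and serve here to place the compared groups. Since diet and pregnancy both differed, this comparison alone does not separate them.

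White adipocytes store energy as triglyceride and can make the fatty acids for it from glucose, through citrate, cytosolic acetyl-CoA, malonyl-CoA and NADPH. The enzymes of this route and those of cholesterol synthesis are under the control of the SREBP transcription factors, of ChREBP and of insulin, and dietary fat is known to lower their RNA. Late gestation is a period in which the mother draws on stored fat and her tissues respond less to insulin.

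Affymetrix Mouse Genome arrays gave 1 intensity for each of 45101 probe sets per mouse, already normalized by the authors on a linear scale on which they used 100 as a cut for low expression. The tests were run on the log2 of these intensities over 19802 probe sets that exceeded 100 in at least 5 of the 20 arrays. They stand for 10603 genes, each read from its brightest probe set. Array medians lay between 60.69 and 64.73 in all groups. Genes that define adipocytes were strongly expressed in both groups. Adiponectin (Adipoq) ranged from 21929 to 23633 in control non pregnant and from 18586 to 23489 in HF pregnant mice, and the fatty acid carrier Fabp4 from 27859 to 29364 and 24381 to 27426, near the top of the scale. The brown fat protein Ucp1 did not pass the filter on low values. Of 14 adipocyte markers listed, 11 were tested and 0 were called, with 3 positive and 8 negative log2 fold changes and a median of -0.23. Fewer cells of a type and less RNA per cell cannot be told apart in these bulk samples.

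A few mice stood apart from their group. Control non pregnant mouse 4 carried RNA of pancreatic acinar cells, with a mean log2 deviation of 5.49 for that marker list against -1.37 to -0.55 in the other 4 mice of its group and -1.54 to 0.03 in HF pregnant mice. A marker list is given here as the mean deviation of its genes, on the log2 scale, from their own means over all 20 arrays. HF pregnant mouse 5 was low in B cell markers (-1.91) and T cell markers (-1.83), and so were control non pregnant mice 1 and 2 (-2.20 and -1.93 for B cells, -1.43 and -1.73 for T cells). The same control mice 1 and 2 also had the lowest intensities of many lipid genes. Of the genes called lower below, both were the lowest mice of their group in 94 of 110. In the same 110 genes, HF pregnant mouse 3 was the lowest of its group in 56 and mouse 5 the highest in 59. How often this holds over all genes was not counted. The results are therefore given with and without single mice.

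In the limma fit with Benjamini-Hochberg adjustment, 63 probe sets (0.318% of 19802) were higher and 193 (0.975%) were lower in HF pregnant than in control non pregnant mice at an adjusted p under 0.05, together 256 (1.29%). By gene these are 46 higher (0.434% of 10603) and 110 lower (1.04%), together 156 (1.47%). A total of 3654 probe sets passed an unadjusted p under 0.05. The lower genes moved further. Their fold changes ran from 1.29 to 28.3 with a median of 2.88, against 1.23 to 4.62 with a median of 1.51 for the higher genes. All 5 mice of each group lay apart from those of the other group in 107 of the 110 lower and 34 of the 46 higher genes, while over all genes the groups did not overlap in 407 (3.84%) with HF pregnant higher and 570 (5.38%) with HF pregnant lower, together 977 (9.21%). The count of calls varied with the mouse left out. It was 256 probe sets with all mice, 77, 36 and 44 without control non pregnant mouse 3, 4 or 5, and 75, 51, 40 and 65 without HF pregnant mouse 1, 2, 3 or 4. It was 302, 258 and 222 without control non pregnant mouse 1 or 2 or HF pregnant mouse 5. Without the pair of arrays high in pancreatic RNA, control non pregnant mouse 4 and a control pregnant mouse, 20 probe sets were called, 5 higher and 15 lower. Every one of the 256 probe sets kept its direction in all these fits, which tests little, since they were called for their difference between these same mice.

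**Figure D1:**
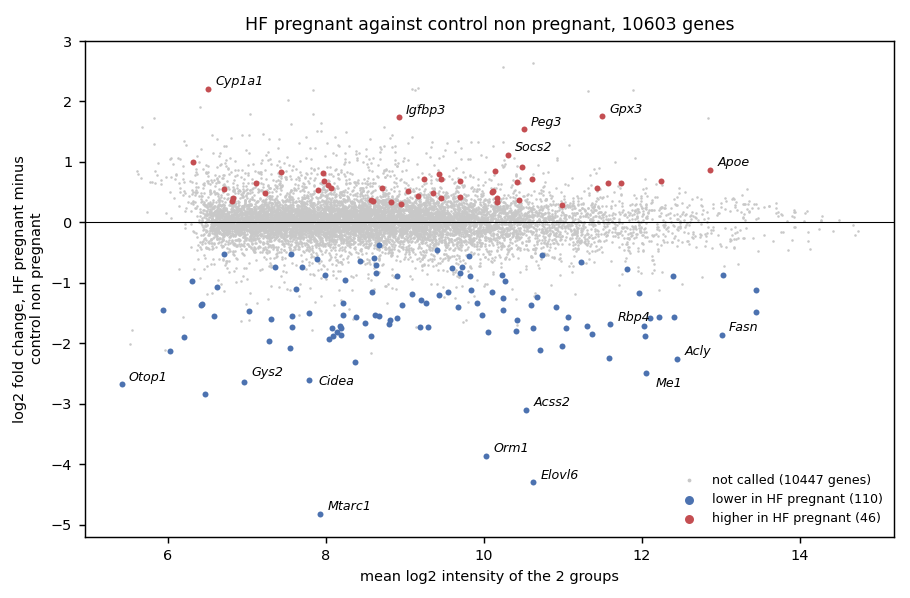
Log2 fold change (HF pregnant minus control non pregnant) of 10603 genes against the mean log2 intensity of both groups, with 1 point per gene and called genes in colour. The 110 lower genes reach -4.82 (Mtarc1) and the 46 higher genes reach 2.21 (Cyp1a1, at low intensity).

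Of the called genes, 22 passed with each of the 10 compared mice left out in turn, 17 of them lower and 5 higher, 16 passed in 5 to 9 of these fits and 118 in fewer than 5. The 17 lower genes were Mtarc1, Elovl6, Orm1, Acss2, Gys2, Me1, Tlcd2, Acly, Enpep, Aldh1a7, Fasn, H2-Q10, Sc5d, Dgat2, Rbp4, Fabp5 and Tkt, and the 5 higher genes were Gpx3, Igfbp3, Grrp1, Mmp14 and Ivns1abp. Fatty acid synthesis and its supply of acetyl-CoA and NADPH account for Elovl6, Acss2, Me1, Acly, Fasn and Tkt. Without both arrays high in pancreatic RNA, 10 of the lower genes (Mtarc1, Elovl6, Orm1, Acss2, Me1, Enpep, Aldh1a7, Fasn, Fabp5 and Tkt) and 3 of the higher genes (Gpx3, Igfbp3 and Grrp1) were called, and they were the only genes called in that fit.

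De novo lipogenesis was the function with the most called genes, together with cholesterol synthesis. Of 24 tested members of the lipogenesis list, 11 were lower and 0 higher, 23 log2 fold changes were negative and 1 positive, and the median was -1.09, where the median of all genes was 0.03. The study names Me1, Fasn and Scd1 of this list for this tissue, and the list was drawn up with results of these data known, so it is no independent evidence of a direction. Elovl6, which elongates palmitate to stearate, had the largest change of the list. Its intensities were 3719, 1899, 14943, 12398 and 12839.5 in control non pregnant mice 1 to 5 and 464, 337, 237, 527 and 291 in HF pregnant mice 1 to 5. Every HF pregnant mouse lay below the lowest control mouse, although control mice 1 and 2 were far below the other 3. The log2 fold change of Elovl6 was -4.30 ± 0.62 (adjusted p = 0.00489), a 19.7-fold difference. A second probe set gave -4.47, and a dim one, not called, gave -1.31.

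Acss2, the enzyme that turns acetate into acetyl-CoA in the cytosol and nucleus, was measured at 1686, 2883, 5133, 7196 and 8674 in control non pregnant and 503, 625, 376, 468 and 614 in HF pregnant mice. All HF pregnant mice were at or below 625 and all control mice at or above 1686, a log2 fold change of -3.10 ± 0.41 (adjusted p = 0.00253). Acly, which cleaves exported citrate to acetyl-CoA, stood at 5093, 6355, 19356, 18497 and 22900.1 against 2460.4, 2677, 1979, 2742 and 3023. Its groups did not overlap, and the log2 fold change was -2.25 ± 0.39 (adjusted p = 0.0102), with all 3 probe sets called. Me1, the cytosolic malic enzyme that yields NADPH, was measured at 4995, 5653, 14716, 14519.8 and 17317 against 1527, 1898, 1399, 1879.8 and 2454. Again control mice 1 and 2 had the lowest values of their group, yet they lay above all HF pregnant mice, and the log2 fold change was -2.49 ± 0.39 (adjusted p = 0.00656). Fatty acid synthase (Fasn), which builds palmitate, was at 12692, 11530.0, 17849.6, 20145 and 18396 against 4323, 5475, 3674, 3863 and 4513, a 3.64-fold difference with a log2 fold change of -1.86 ± 0.26 (adjusted p = 0.00322).

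The remaining called members of the list cover the mitochondrial citrate carrier Slc25a1 (-2.12), acetyl-CoA carboxylase (Acaca, -1.84), the stearoyl-CoA desaturase Scd2 (-1.58), transketolase of the pentose phosphate pathway (Tkt, -1.48), the lipogenic nuclear protein Thrsp (-1.12) and the desaturase Fads2 (-0.73), all as log2 fold changes. Slc25a1 was called in 3, Acaca in 3, Thrsp in 3, Scd2 in 7 and Fads2 in 3 of the 10 fits with a mouse left out. Across those fits the list held between 6 and 12 lower members and 0 higher ones, and it held 5 without both arrays high in pancreatic RNA. Scd1, the main stearoyl-CoA desaturase of fat, did not pass on its brightest probe set, at 28398, 29080.0, 27650.3, 29936 and 28450.2 against 24188, 25737, 24163, 25034 and 24383. That probe set was among the 20 brightest of every array, near the upper end of the scale, and its log2 fold change was -0.22 ± 0.06 (adjusted p = 0.0854). The groups nevertheless did not overlap, and the second Scd1 probe set, at a mean log2 intensity of 13.04 in control non pregnant and 11.52 in HF pregnant, had a log2 fold change of -1.51 ± 0.28 (adjusted p = 0.0159).

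**Figure D2:**
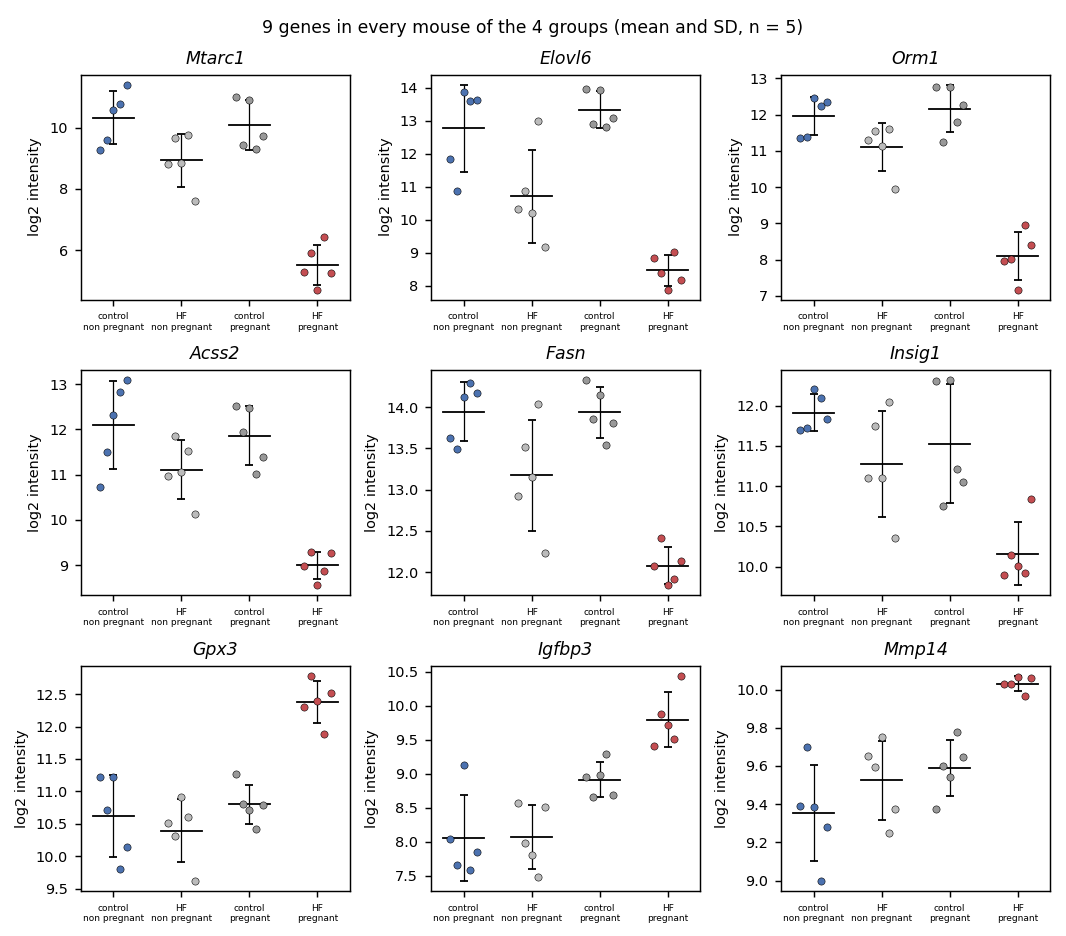
Log2 intensity of 9 genes in every mouse of the 4 groups, with 1 point per mouse (mouse 1 to 5 from left to right), the bar at the mean and the whiskers at 1 SD (n = 5). In each panel the 5 HF pregnant mice lie apart from the 5 control non pregnant mice, lower for Mtarc1, Elovl6, Orm1, Acss2, Fasn and Insig1 and higher for Gpx3, Igfbp3 and Mmp14.

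Cholesterol synthesis had as many called genes. Of 20 tested members of the list, 11 were lower and 0 higher, with 17 negative and 3 positive log2 fold changes and a median of -1.17. The called enzymes run from phosphomevalonate kinase (Pmvk, -1.54) and farnesyl diphosphate synthase (Fdps, -1.62) over squalene synthase (Fdft1, -1.16), squalene epoxidase (Sqle, -0.95) and lanosterol synthase (Lss, -1.72) to the late sterol enzymes Msmo1 (-0.71), Nsdhl (-1.73), Tm7sf2 (-1.74), Sc5d (-1.74) and Dhcr7 (-1.33). No enzyme of a step before phosphomevalonate kinase was among the called members, and 9 members of the list were not called. Insig1, the sterol-regulated anchor that holds SREBP in the endoplasmic reticulum and is itself an SREBP target, was measured at 3319, 3368, 4732, 4379 and 3664 in control non pregnant and 955, 1133, 1028, 965 and 1828 in HF pregnant mice. HF pregnant mouse 5 was the highest of its group and still below every control mouse, and the log2 fold change was -1.75 ± 0.32 (adjusted p = 0.0162). Sc5d, which introduces a double bond of the sterol ring, was at 1979, 1995, 3453, 3598 and 4142 against 810.1, 923, 687, 783 and 1196, with a log2 fold change of -1.74 ± 0.31 (adjusted p = 0.0112). Nsdhl, a sterol dehydrogenase, was at 578, 791, 1409, 1219 and 1750.3 against 289, 341, 287, 310.3 and 386 (-1.73 ± 0.31, adjusted p = 0.0137). Many of these calls did not pass in every fit with a mouse left out. Sc5d was called in all 10 fits with a mouse left out, Insig1 in 8, Nsdhl in 7 and Tm7sf2 in 2, and the number of lower members fell to 1 without control non pregnant mouse 4 or HF pregnant mouse 3, to 2 or 3 without control mouse 5 or 3 or HF pregnant mouse 2 or 4, and to 5 without HF pregnant mouse 1. It was 9 without HF pregnant mouse 5 and 12 and 15 without control mouse 2 or 1, and the median of the list stayed between -1.37 and -1.05. Without both arrays high in pancreatic RNA 0 members passed, at a median of -1.10.

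The promoters of 3 called genes are shown because lipogenesis and cholesterol synthesis held the most called genes. The sequences are the 250 bases before the transcription start in RefSeq (GRCm38.p6), 5′ to 3′ on the strand of the gene, with capitals marking CCAAT or its reverse complement (the letters bound by NF-Y, a partner of SREBP) and CACGTG (an E-box, palindromic). Fasn stands for fatty acid synthesis, Nsdhl for the sterol enzymes and Insig1 for sterol sensing.
Fasn, GRCm38.p6 chr11:120824548-120824797, minus strand: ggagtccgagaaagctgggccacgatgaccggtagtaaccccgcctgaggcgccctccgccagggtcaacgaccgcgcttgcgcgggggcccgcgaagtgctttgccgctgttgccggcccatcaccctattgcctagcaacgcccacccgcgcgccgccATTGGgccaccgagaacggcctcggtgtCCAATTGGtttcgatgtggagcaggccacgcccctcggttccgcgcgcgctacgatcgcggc
Nsdhl, GRCm38.p6 chrX:72918271-72918520, plus strand: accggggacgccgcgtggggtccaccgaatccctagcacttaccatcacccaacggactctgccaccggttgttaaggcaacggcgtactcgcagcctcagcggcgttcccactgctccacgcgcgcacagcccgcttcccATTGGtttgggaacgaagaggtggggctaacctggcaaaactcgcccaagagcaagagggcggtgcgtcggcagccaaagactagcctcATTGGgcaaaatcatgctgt
Insig1, GRCm38.p6 chr5:28071162-28071411, plus strand: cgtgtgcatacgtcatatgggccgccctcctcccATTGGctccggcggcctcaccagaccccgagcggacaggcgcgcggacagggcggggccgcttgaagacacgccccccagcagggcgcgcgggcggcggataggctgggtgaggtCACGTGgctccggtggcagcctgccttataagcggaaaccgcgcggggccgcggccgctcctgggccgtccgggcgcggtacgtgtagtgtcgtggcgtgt
Fasn holds CCAAT at 3 places, of which the pair nearest to the start overlaps on opposite strands, Nsdhl at 2 places, and Insig1 holds 1 CCAAT and 1 CACGTG. Among the 22 called genes of lipogenesis and cholesterol synthesis, 18 have a promoter in the RefSeq table, with 22 promoters in all. CCAAT on either strand was found in 13 of the 22 (59.1%) and in 33.85% of all 32851 promoters of the table, and CACGTG in 4 (18.2%) and in 6.02%. The sterol element letters TCACNCCAC, the consensus estrogen response element and the consensus direct repeat of nuclear receptors with 1 spacing base (DR1) were in 0 of the 22, against 1.05%, 0.06% and 0.03% of all promoters. These are counts of letters in a window and were not tested. Members of these lists that were not called were not counted, so the shares cannot tie the letters to the change. With shares this low over all promoters, 0 of 22 for the sterol, estrogen and DR1 letters does not show that such sites are lacking.

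Triglyceride synthesis and storage had fewer calls. Of 25 tested members 6 were lower and 0 higher, with 21 negative and 4 positive log2 fold changes and a median of -0.38. Dgat2, which catalyses the last step of triglyceride synthesis, was measured at 5235, 7042, 7792, 8506 and 9783 in control non pregnant and 1859, 2360.0, 1607, 2218 and 4087 in HF pregnant mice. The groups did not overlap, HF pregnant mouse 5 being the closest to the controls, and the log2 fold change was -1.71 ± 0.29 (adjusted p = 0.00957), with both probe sets called. Fabp5, a carrier of fatty acids in adipocytes and macrophages that falls outside the rule for named genes and was chosen after its values were seen, was at 6527, 5607, 10629, 12678 and 14327 against 2839.5, 3246, 3003, 3787 and 2919.5 (-1.57 ± 0.25, adjusted p = 0.00656). Agpat2, an acyltransferase of the glycerol phosphate route, was at 4293 to 10829.6 against 1541 to 4204, with a log2 fold change of -1.87 ± 0.42 (adjusted p = 0.0353). The monoacylglycerol acyltransferases Mogat2 (-1.97) and Mogat1 (-1.53) were lower too. Cidea, a lipid droplet protein that is abundant in brown fat, was at 385, 177, 632, 984 and 1150.0 against 87.7, 58.8, 122, 73.8 and 127, with a log2 fold change of -2.60 ± 0.57 (adjusted p = 0.0353). Several of its HF pregnant values lay under 100, where a fold change is uncertain. Dgat2 and Fabp5 were called with each mouse left out, whereas Cidea and Agpat2 were called in 3 and Mogat2 in 2 of the 10 fits. With intensities under 100 set to 100, Mogat2 changed by -1.62 and no longer passed (adjusted p = 0.0846). The list held between 2 and 6 lower members with a mouse left out and 1, Fabp5, without both arrays high in pancreatic RNA.

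Genes of glucose entry, glycolysis and glycogen were lower in 8 of 22 tested members and higher in 0, with 19 negative and 3 positive log2 fold changes and a median of -0.82. Gys2, Gbe1 and Pygl of glycogen metabolism were among them. Gys2, the glycogen synthase known from liver, was measured at 169.8, 191, 370.4, 391 and 631 in control non pregnant and 56.1, 63.1, 38.8, 57.3 and 41.0 in HF pregnant mice, all 5 of the latter under 100. The log2 fold change was -2.63 ± 0.44 (adjusted p = 0.00957), or -1.64 with intensities under 100 set to 100. The branching enzyme Gbe1 was at 632, 677, 1638, 1337 and 2021 against 312, 364, 271, 306 and 512 (-1.72 ± 0.38, adjusted p = 0.0344), and the phosphorylase Pygl at 2718, 2400.1, 6853, 6068 and 7448 against 1104, 1824, 1146, 1245 and 1849.6 (-1.71 ± 0.39, adjusted p = 0.0393). Control mice 1 and 2 were the lowest of their group in all 3 genes. The insulin-responsive glucose transporter Slc2a4 (-1.45) and the glycolytic enzymes Pkm (-1.12), Aldoa (-0.87) and Ldha (-0.76) were lower by smaller amounts. The fructose transporter Slc2a5 was at 78.3, 50.04, 220.1, 188 and 371 against 37.1, 40.7, 44.1, 31.8 and 38.8, a log2 fold change of -1.90 ± 0.46 (adjusted p = 0.0474) that shrank to -0.79 (adjusted p = 0.167) with intensities under 100 set to 100. Gys2 alone was called with each mouse left out. In those fits the list held between 1 and 8 lower members, with 1 (Gys2) without control non pregnant mouse 3, 4 or 5 or HF pregnant mouse 1, 2, 3 or 4, and 0 without both arrays high in pancreatic RNA.

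The largest change of all belonged to Mtarc1, a molybdenum enzyme of the outer mitochondrial membrane that reduces N-hydroxylated compounds. Its intensities were 627, 786, 1524, 1776 and 2725 in control non pregnant and 39.3, 60.2, 26.1, 85.8 and 37.6 in HF pregnant mice. All 5 HF pregnant mice were under 100 and all control mice at or above 627, and the log2 fold change was -4.82 ± 0.48 (adjusted p = 7.69e-05), a 28.3-fold difference, or -3.69 with intensities under 100 set to 100. Its second probe set gave -3.32. Orm1, or orosomucoid, an acute phase protein secreted by liver and fat, was at 2637, 2692, 5612, 4851 and 5253 against 249, 258, 144, 498 and 337. The highest HF pregnant mouse was at 498 and the lowest control mouse at 2637, and the log2 fold change was -3.86 ± 0.38 (adjusted p = 7.69e-05). Orm3, another orosomucoid, was lower as well, with a log2 fold change of -1.55 ± 0.28 (adjusted p = 0.0156), at 115 to 199.6 against 48.3 to 70.6. Orm2 had a log2 fold change of -2.01 ± 0.53 (adjusted p = 0.0711). Both were under 100 in every HF pregnant mouse, and with intensities under 100 set to 100 Orm3 was at -0.72 (adjusted p = 0.134) and Orm2 at -0.37 (adjusted p = 0.418). Probes of one orosomucoid can bind RNA of another, so that the share of each is uncertain.

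Rbp4, the plasma carrier of retinol that adipocytes also secrete, was measured at 4546, 6143, 4306, 6625 and 6642 in control non pregnant and 1230.2, 2491, 1134, 1963 and 2235 in HF pregnant mice. The groups were apart and the log2 fold change was -1.69 ± 0.29 (adjusted p = 0.0102). Rdh11, a retinol dehydrogenase, was at 277, 237, 1043, 784 and 1038 against 142, 125, 158, 189 and 161, with control mice 1 and 2 close to the HF pregnant mice and the other 3 far above (-1.87 ± 0.40, adjusted p = 0.0329). It was called in 3 of 10 fits with a mouse left out. These were the only called genes among 15 tested members of the retinol list, whose median was -0.29. Among 16 adipokines and adipocyte factors, Orm1 and Rbp4 were lower and 0 were higher, with a median of -0.22. Leptin (Lep, -0.67 ± 0.60, adjusted p = 0.507), resistin (Retn, -0.48 ± 0.20, adjusted p = 0.224) and adiponectin (Adipoq, -0.14 ± 0.12, adjusted p = 0.497) did not pass.

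Further genes with large negative changes have other roles. Enpep, the aminopeptidase that trims angiotensin, was at 4771, 3967, 8259.9, 8797 and 9792 in control non pregnant and 1515, 1515, 1039.8, 1625 and 1419 in HF pregnant mice, with no overlap (-2.25 ± 0.33, adjusted p = 0.0051). Tlcd2, a membrane protein with a TLC domain, was at 296, 549, 848, 978 and 1623 against 139, 142, 135, 140.4 and 192 (-2.31 ± 0.40, adjusted p = 0.0102). Both passed with each mouse left out. So did 3 genes outside the rule for named genes, chosen after their values were seen, namely the aldehyde dehydrogenase Aldh1a7 (-2.04), the secreted class I histocompatibility protein H2-Q10 (-1.80) and Tkt. Chn1, which inactivates the GTPase Rac, changed by -2.08 ± 0.44 (adjusted p = 0.0308). It was at 166 to 593.5 in control non pregnant and 69.8 to 131 in HF pregnant mice, several of the latter under 100. The multicopper oxidase Hephl1 (-2.85), the proton channel Otop1 (-2.68) and the helicase Recql4 (-2.13) had means under 100 in HF pregnant mice, and with intensities under 100 set to 100 they changed by -1.41, -0.62 and -0.84 and no longer passed (adjusted p = 0.19, 0.239 and 0.175). They were called in 3, 3 and 2 of the 10 fits with a mouse left out. Otop1 and Cidea were the called members among 7 tested of the brown fat list, whose median was -1.05 and whose level was at or above 0.01 in all control non pregnant and at or below -0.29 in all HF pregnant mice. Of these members 6 had negative log2 fold changes and 1 a positive one. The positive one, at 0.93, was higher without overlap between the groups but was not called. Cox7a1, a brown fat and muscle subunit of cytochrome oxidase, was at 124 to 199 against 53.5 to 95.1 and was not called (-1.14 ± 0.28, adjusted p = 0.0502). Its HF pregnant values were all under 100, and with intensities under 100 set to 100 its log2 fold change was -0.64 (adjusted p = 0.0722). Inhbb, the activin subunit that adipocytes make, had a log2 fold change of -1.53 ± 0.30 (adjusted p = 0.0222), the detoxifying enzyme Gsta3 one of -1.36 ± 0.32 (adjusted p = 0.0449) and the myosin light chain Myl1 one of -1.29 ± 0.27 (adjusted p = 0.0312). They were called in 7, 2 and 3 of the 10 fits with a mouse left out.

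Among the higher genes, Gpx3, the secreted glutathione peroxidase of plasma, had the largest log2 fold change after Cyp1a1. It was measured at 2385, 1676, 2391, 892 and 1134 in control non pregnant and 5029.8, 7042, 5382, 3802 and 5858 in HF pregnant mice. All HF pregnant mice were above all controls, and Gpx3 rose by 1.76 ± 0.27 (adjusted p = 0.00656) on the log2 scale, or 3.38-fold. Igfbp3, the main binding protein of the insulin-like growth factors in plasma, was at 264, 203, 560.5, 193 and 231 against 681, 944, 838, 733 and 1389. Control mouse 3 was high in its group yet below every HF pregnant mouse, and Igfbp3 rose by 1.74 ± 0.27 (adjusted p = 0.00656), with both probe sets called. Mmp14, a membrane protease that remodels collagen, was at 670.3, 833, 669, 512 and 623 against 1047, 1045, 1073, 999 and 1069. The 5 HF pregnant mice differed little among themselves, and the log2 fold change was 0.68 ± 0.12 (adjusted p = 0.00957). Grrp1, a glycine- and arginine-rich protein, was at 123, 106, 171, 121 and 134 against 214, 241, 265, 198 and 233 (0.83 ± 0.13, adjusted p = 0.0061). Ivns1abp, an actin-binding protein named after its viral partner and chosen here after its values were seen, rose by 0.65 ± 0.11 (adjusted p = 0.0112). All 5 genes passed with each mouse left out.

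Other higher genes were called less stably, and several had groups that overlapped. Peg3, a paternally expressed zinc finger protein, was at 1399, 1777, 560.0, 579.9 and 559 in control non pregnant and 1609.8, 2969, 2779, 1823 and 3842 in HF pregnant mice, where control mouse 2 exceeded HF pregnant mouse 1 (1.54 ± 0.36, adjusted p = 0.0438). Socs2, a feedback inhibitor of growth hormone signalling, was at 832, 608, 1817, 837 and 598 against 2014, 1939, 1649, 1506 and 2318, with control mouse 3 inside the HF pregnant range (1.12 ± 0.27, adjusted p = 0.0494). Its dimmer probe sets gave 1.01 (adjusted p = 0.00987), 0.60 (adjusted p = 0.0344), 1.22 (adjusted p = 0.052) and 1.10 (adjusted p = 0.0854). Cyp1a1, the classical target of the aryl hydrocarbon receptor, was at 26.8, 147, 35.5, 34.2 and 29.1 against 269, 227, 170.3, 108 and 259, with control mouse 2 above HF pregnant mouse 4 (2.21 ± 0.53, adjusted p = 0.0474). With intensities under 100 set to 100 its change was 0.86 (adjusted p = 0.0735). Peg3 was called in 2, Socs2 in 1 and Cyp1a1 in 1 of the 10 fits with a mouse left out. Apolipoprotein E (Apoe), a lipid carrier abundant in macrophages and adipocytes, was at 6189, 7599, 4893, 4431 and 5044 against 8000.2, 10308, 11818, 8061 and 13369.7, without overlap (0.87 ± 0.21, adjusted p = 0.0494, called in 1 fit). The transcription factor Mycl was near the floor (0.99, or 0.22 with intensities under 100 set to 100), and Cyp4b1, a fatty acid and xenobiotic hydroxylase, changed by 0.92 ± 0.18 (adjusted p = 0.0228) with HF pregnant mouse 5 inside the control range.

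The named higher genes also include genes of the vessel wall, the matrix and receptors. Plvap, the protein of endothelial diaphragms, was at 658 to 1083 in control non pregnant and 1206 to 1722 in HF pregnant mice and changed by 0.86 ± 0.18 (adjusted p = 0.0329), and Calcrl, the receptor for adrenomedullin, by 0.72 ± 0.17 (adjusted p = 0.0449). Plvap was the only called member among 18 endothelial genes, whose median was 0.05. Mmp14 was the only one among 29 genes of the extracellular matrix (median 0.02), where 15 log2 fold changes were positive and 14 negative. The matrix protein Sned1 (0.81), the oncostatin M receptor Osmr (0.72), the C-type lectin Clec2d (0.72) and the macrophage lectin Clec10a (0.80) were higher too. Clec10a overlapped between groups and was called in 0 of the 10 fits with a mouse left out. Pdia4, a chaperone of the endoplasmic reticulum, rose by 0.48 ± 0.11 (adjusted p = 0.0379) and was the only called gene of 20 in the endoplasmic reticulum stress list, of which 17 had positive log2 fold changes and whose median was 0.23. Foxo1, a transcription factor that insulin excludes from the nucleus, changed by 0.52 ± 0.11 (adjusted p = 0.0329) and was called on 1 of its 3 probe sets. With Igfbp3 it made up the 2 called members of 21 in the list of IGF and insulin signalling, with 15 positive log2 fold changes and a median of 0.25. Igf1 itself was at 3055, 3268, 3085, 2528 and 1800.4 against 2982, 4616, 3415, 3542 and 6817, overlapping and not called (0.60 ± 0.29, adjusted p = 0.268).

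Several functions had 0 called genes. All 32 tested genes of the mitochondrial respiratory chain had negative log2 fold changes, with a median of -0.29, and the list level was 0.01 to 0.33 in control non pregnant and -0.28 to 0.04 in HF pregnant mice, which overlap. Over all genes 45.6% of log2 fold changes were negative and 54.4% positive. Lipolysis and fatty acid oxidation had 22 negative and 2 positive of 24 (median -0.38), with Mgll, the monoacylglycerol lipase, at -0.84 ± 0.28 (adjusted p = 0.147). The breakdown of branched-chain amino acids had 16 negative and 3 positive of 19 (median -0.29), with Mccc1 at -0.78 ± 0.21 (adjusted p = 0.085). Inflammatory mediators had 9 positive and 7 negative of 16 (median 0.04). Ccl2, the monocyte chemoattractant, was at 71.0, 137, 94.7, 91.4 and 129 against 80.0, 88.3, 106, 135 and 83.4, with wide overlap (-0.07 ± 0.25, adjusted p = 0.881), and Tnf did not pass the filter on low values. Estrogen synthesis and action had 5 positive and 7 negative of 12 (median -0.05). The estrogen receptor Esr1 was at 1385, 1104, 1457, 1378 and 1265 against 802, 1323, 784, 900.5 and 1683 and Hsd17b12, which acts on long-chain fatty acids and on estrone, at 3655, 3361, 7162, 5665 and 6899 against 2371, 3072, 3265, 2424 and 4674, both overlapping (-0.32 ± 0.34, adjusted p = 0.571, and -0.73 ± 0.30, adjusted p = 0.211).

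**Figure D3:**
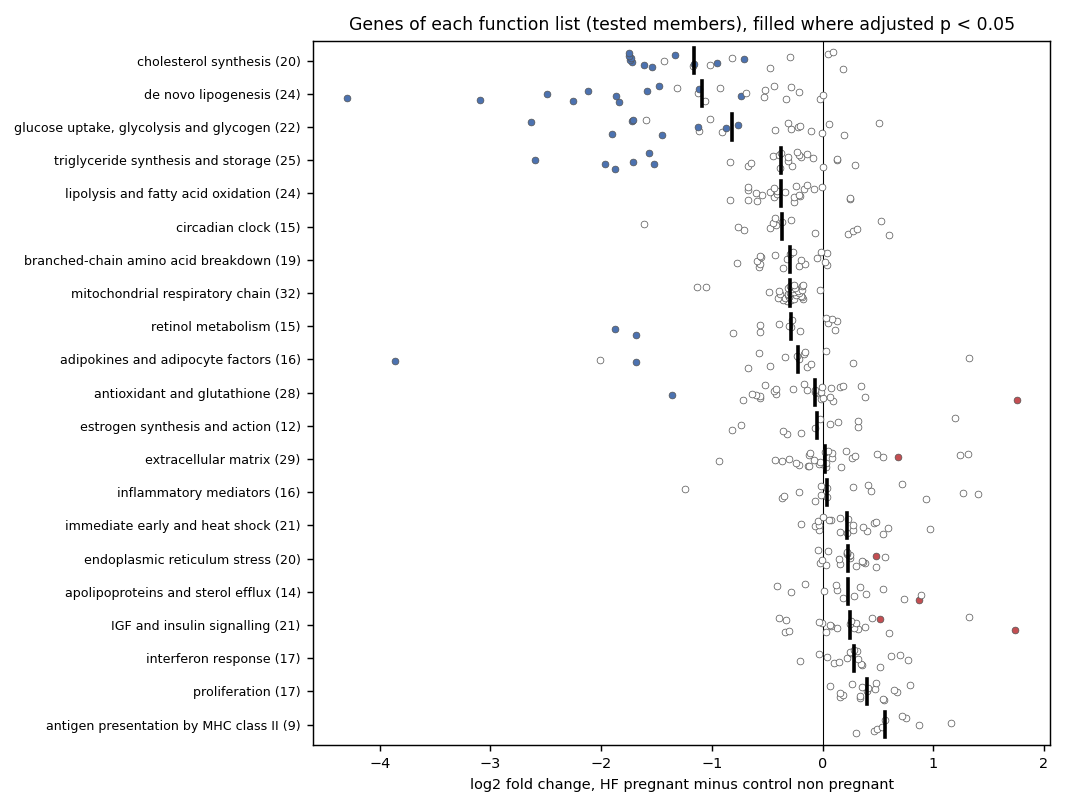
Log2 fold change (HF pregnant minus control non pregnant) of every tested gene in 21 function lists, with 1 point per gene, filled where called, the black bar at the median of the list and the number tested in brackets. Called lower genes gather in cholesterol synthesis, lipogenesis, glucose and glycogen, and triglyceride synthesis, while the respiratory chain lies below 0 as a whole with 0 called.

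The other groups show where the compared groups stand. The 4 single-factor comparisons share arrays with this one and with each other, so their values are only set side by side. The mean log2 intensity of Mtarc1 was 10.34 ± 0.87 (SD, n = 5) in control non pregnant and 5.51 ± 0.67 in HF pregnant mice, with 8.94 ± 0.87 in the HF non pregnant and 10.08 ± 0.82 in the control pregnant group. In the order of the control non pregnant, the HF non pregnant, the control pregnant and the HF pregnant group, the means of Orm1 were 11.96, 11.11, 12.17 and 8.10, those of Elovl6 12.77, 10.71, 13.34 and 8.47, and those of Fasn 13.94, 13.17, 13.94 and 12.08. In each of these genes the control pregnant mean differed from the control non pregnant mean by at most 0.57 on the log2 scale (Elovl6), the HF non pregnant mean lay below it, and the HF pregnant mean was the lowest. For Gpx3 they were 10.62, 10.39, 10.80 and 12.38, with the HF pregnant mean the highest. Igfbp3, at 8.06, 8.07, 8.92 and 9.79, had a control pregnant mean above both non pregnant means, though that step was not called. Rbp4, at 12.44, 12.18, 11.81 and 10.75, had a lower control pregnant than HF non pregnant mean.

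The step from HF non pregnant to HF pregnant mice alone was called for 4 genes (0.0377%). Mtarc1 changed by -3.42 ± 0.48 (adjusted p = 0.00785), Orm1 by -3.01 ± 0.38 (adjusted p = 0.00464), Gpx3 by 1.98 ± 0.27 (adjusted p = 0.00785) and Igfbp3 by 1.72 ± 0.27 (adjusted p = 0.0247). The step from control pregnant to HF pregnant mice was called for 26 genes (0.245%), with Elovl6 at -4.87, Mtarc1 at -4.57 and Orm1 at -4.07. Neither diet in non pregnant mice nor pregnancy on the control diet gave a call (0 of 19802 probe sets each, with 3500 and 575 at an unadjusted p under 0.05). Over the 110 genes called lower, the median log2 fold change was -1.53 for the whole comparison, -0.76 with the HF diet in non pregnant mice, -0.65 from HF non pregnant to HF pregnant, -0.18 with pregnancy on the control diet and -1.25 with the diet in pregnant mice. Over the 46 genes called higher these medians were 0.59, 0.23, 0.35, 0.20 and 0.38. Whether the joint change departs from the sum of the diet and pregnancy changes was tested for each probe set, and 0 of 19802 passed, with 610 at an unadjusted p under 0.05. The smallest adjusted p was 0.201, for Orm1, whose departure was -3.21 ± 0.53. For Mtarc1 it was -3.17 ± 0.68 and for Gpx3 1.80 ± 0.39 (adjusted p = 0.933 for both).

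**Figure D4:**
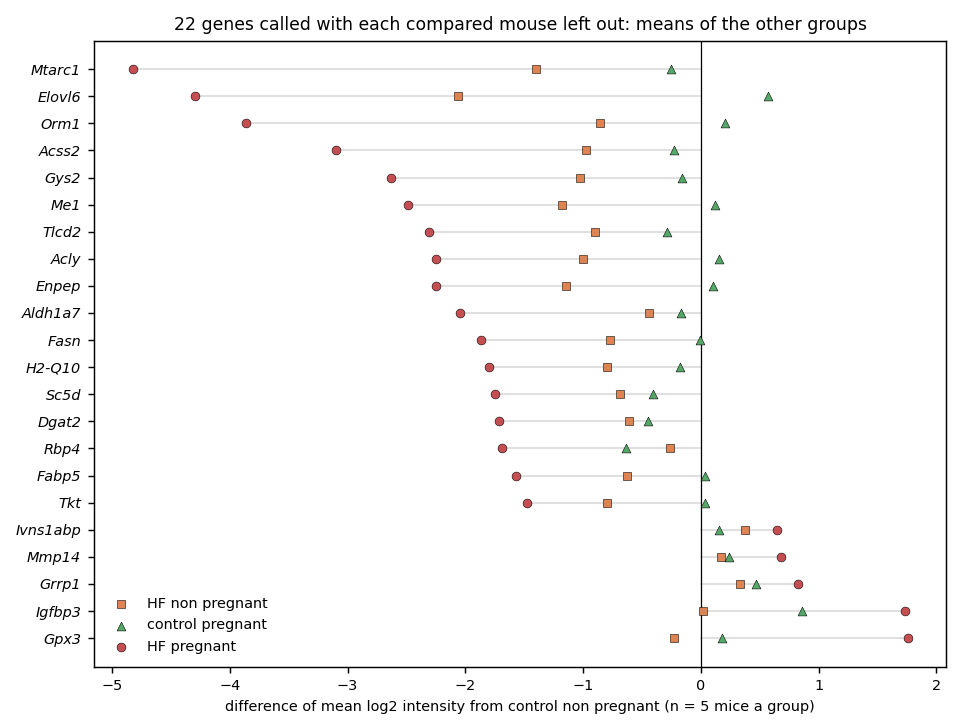
Mean log2 intensity of HF non pregnant (squares), control pregnant (triangles) and HF pregnant mice (circles), as the difference from the control non pregnant mean at 0, for the 22 genes called with each compared mouse left out (n = 5 mice a group). The genes were chosen for the distance of the HF pregnant mean from 0, which runs from -4.82 (Mtarc1) to 1.76 (Gpx3), and the means of the other groups are what the plot adds.

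Markers of other cells are given beside these genes. Of 30 macrophage markers 27 had positive log2 fold changes and 1 (Clec10a) was called, with a median of 0.54, and the list level was -0.58 to -0.01 in control non pregnant and -0.11 to 0.52 in HF pregnant mice. All 12 B cell markers and all 12 T cell markers were positive, with medians of 1.27 and 0.73 and 0 called, and their levels overlapped (-2.20 to 0.70 against -1.91 to 1.18 for B cells, -1.73 to 0.55 against -1.83 to 0.81 for T cells). The summed intensity of the B cell list ran from 1215 to 8570.0 in control non pregnant and from 1438 to 12332 in HF pregnant mice, and Cd79a, part of the B cell receptor, was under 100 in 3 of the 5 control mice and in HF pregnant mouse 5. The 9 genes of MHC class II (median 0.57) and the 17 of proliferation (median 0.41) were all positive as well, with 0 called. Interferon response genes had 15 positive and 2 negative (median 0.28), also with 0 called. With the mean of the B and T cell markers as a covariate, 172 probe sets were higher and 182 lower, 220 of them among the 256, and the median of the macrophage list was 0.29 in place of 0.54. Mast cell, mesothelial and smooth muscle lists had 0 called and medians of 0.42, 0.10 and 0.13. Of skeletal muscle, ovary and pancreatic lists 3 genes each were tested, of intestinal epithelium 3, and of the mammary, placental and erythroid lists 1 each, the other listed genes of these cells having no tested probe set. Glycam1, the single mammary gene, which lymph node vessels also express, ranged from 17.3 to 3385 in control non pregnant and from 337 to 8986 in HF pregnant mice, lowest in control mice 2 and 1 and HF pregnant mouse 5.

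**Figure D5:**
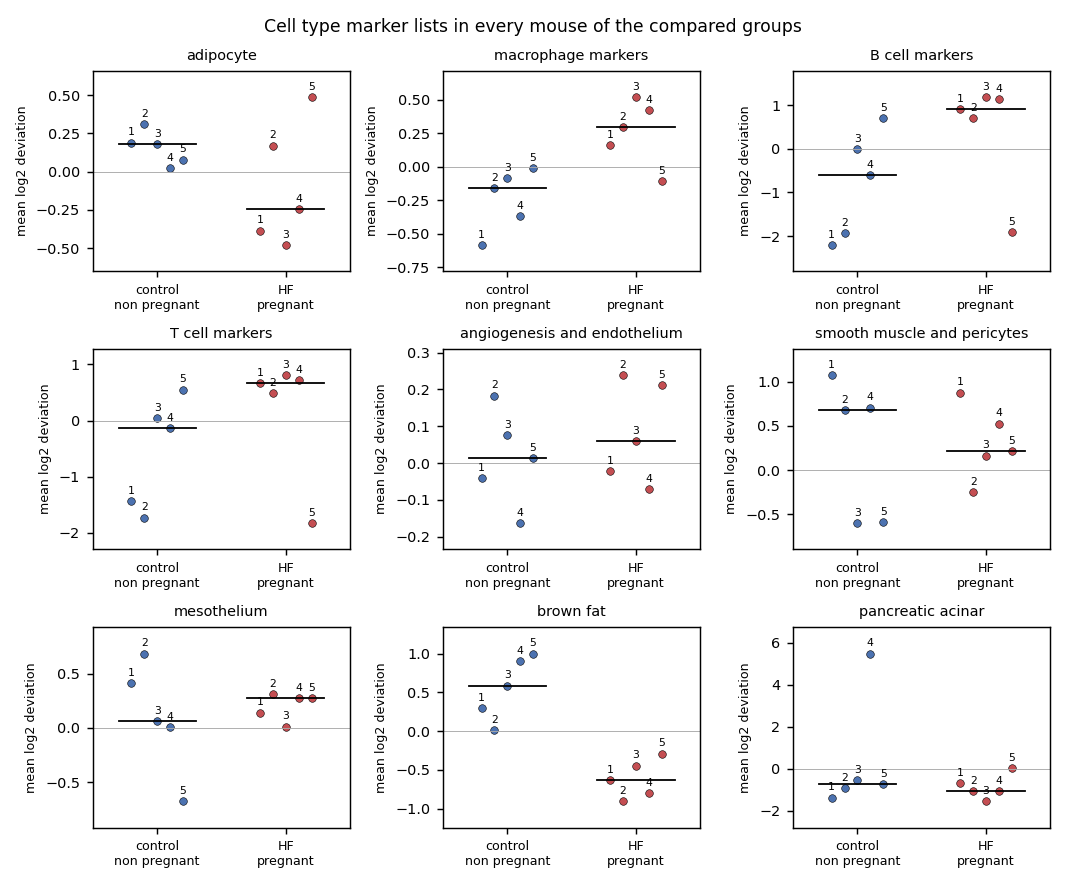
Mean log2 deviation of 9 cell type marker lists in each control non pregnant and HF pregnant mouse, with 1 numbered point per mouse and the bar at the group median. HF pregnant mouse 5 is low in B and T cell markers, control non pregnant mouse 4 is high in pancreatic acinar markers (5.49), and the brown fat list does not overlap between the groups.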

How the data were processed

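Visceral fat RNA from 20 mice in 4 groups of 5 was hybridised to Affymetrix Mouse Genome 430-2.0 arrays, 1 per mouse. The intensity values were deposited by the authors after RMA (background correction, quantile normalization and probe summary over all arrays) with the affy package in R 2.8.0, per the labels, on a linear scale. RMA forces all arrays to 1 distribution, so a shift shared by all genes would not be seen. The number of arrays, not a read depth, limits the precision. Here log2 intensities were fitted with limma 3.58.1 (R 4.3.3) as 4 group means over all 20 arrays, with moderated variances (eBayes) and Benjamini-Hochberg adjustment over 19802 probe sets. These exceeded 100, the cut on low expression that the study used, on at least 5 arrays, and 64 manufacturer controls were left out. Called means an adjusted p under 0.05, two-sided. The fit was tested on simulated data.

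Of the tested probe sets, 17322 have 1 gene symbol in the platform annotation, 531 several and 1949 none. The brightest probe set of 1 symbol stands for its gene, and its adjusted p is that over all probe sets. Named are the called genes with the 15 highest and the 15 lowest log2 fold changes, up to 4 called members of each of 39 gene lists, up to 2 members with the smallest p of a list with none called, and genes the study names. All called members of the lipid and glucose lists and the main adipokines are given too, and those beyond the rule, like other genes marked so in the text, were chosen after their values were seen. The comparison, the lists and the tests were chosen with earlier results of these data known, so no list serves as independent support. Replicate numbers come from the titles, no source says that they pair mice, and no scan date or batch is given in the sources used here. The methods name both limma and rank products, and chose genes for pathway analysis by a rank product p with cuts on expression and fold change. Rank products were run here as an alternative in an own implementation with 100 permutations. Other alternatives were filters, scalings, weights, samples, a floor of 100, a marker covariate and a replicate block. The labels name visceral fat, and a figure legend of the study names the mesenteric depot for the arrays. Promoters came from RefSeq (GRCm38.p6), of which 18 of 22 genes matched by symbol.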

Additional observations from a re-analysis of the deposited data

Results flagged for a closer look

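In 10 of 176 groups of 5 mice examined, over named genes and list levels, the highest or lowest mouse stood apart from the nearest other by more than 0.71 of the range of the group, a gap that chance alone gives in about 1 of 20 groups. The 10 flagged groups are thus close to what that rate gives, and values measured on the same mice are not independent. HF pregnant mouse 5 accounts for 6 of the 10. It was the lowest of its group in the levels of T cell markers (gap 0.882 of the range), MHC class II (0.872), B cell markers (0.845) and proliferation (0.733), and the highest in Tlcd2 (0.849, 192 against a median of 140.4) and Insig1 (0.737, 1828 against 1028). Without this mouse 222 probe sets were called in place of 256.

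Control non pregnant mouse 4 was the highest in pancreatic acinar markers (0.880) and in the retinol list (0.819), and mouse 3 in the list of branched-chain amino acid breakdown (0.754). Control non pregnant mouse 2 was the highest in Cyp1a1 (0.833), at 147 against a median of 34.2, and without it the log2 fold change of Cyp1a1 was 2.65 (adjusted p = 0.0139). Whether anything beyond chance sets these mice apart was not tested.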

How the results depend on the processing

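The comparison gave 63 higher and 193 lower probe sets, and both counts are given in this order. Leaving out 1 mouse gave 9 to 61 and 27 to 244. Testing all probe sets gave 22 and 65, centring each array on its median 40 and 160, the fit to the 10 compared arrays alone 1116 and 1317, array quality weights 5471 and 4076, and the B and T cell marker covariate 172 and 182. The array weights were very uneven, from 0.2327 to 11.34 (HF non pregnant mouse 3), with 4.449 for control non pregnant mouse 4, which carried pancreatic RNA. The weighted counts therefore lean on a few arrays. Leaving out both arrays high in pancreatic RNA gave 5 and 15. With the mean of all probe sets of a gene, 43 and 116 genes passed. A fold change of at least 1.5 beside the adjusted p left 32 and 174, with an unadjusted p it gave 307 and 662, and with the rank product 879 and 722. Quantile normalization repeated, a floor of 100, a filter on the mean, kept control probe sets and a robust trend in eBayes changed neither count by more than 1.5 times. The share of higher calls, 24.6% in the comparison as reported, was 57.3% with array weights, 45.9% with the 10 arrays, 48.6% with the covariate and 40.3% without control non pregnant mouse 3. The departure from additivity was called for 2 probe sets with array weights and for 0 in each other setting that was fitted to all 4 groups.

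The replicate number as a block gave 10 higher and 16 lower calls (38.5% higher) and 0 for additivity. The deviations of same-numbered HF pregnant and control non pregnant mice correlated at 0.127, -0.226, 0.270, 0.158 and -0.555. No mouse correlated best with its own number. Single mice that stood apart in pancreatic or lymphoid markers enter these correlations, so they cannot settle whether the numbers pair mice or share a batch.

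All 256 probe sets kept their direction in each of these settings that held them. This tests little, since several settings leave the fold change as it is and the probe sets were called for their difference. For the 49 called genes named by the rule, 768 of 1124 refits passed with the same direction and 356 no longer passed. The list medians moved in 3 of 828 refits by more than the spread between mice. The cause of these changes was not tested. Of the called genes, 23 had a mean under 100 in a compared group, where a fold change is uncertain.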

Other observations

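The genes named first here were chosen after their values were seen, most of them from outside the lists. The receptor subunits for oncostatin M and leukaemia inhibitory factor and their shared signalling chain gp130 were all higher in HF pregnant mice, with log2 fold changes in limma of 0.72 ± 0.15 (adjusted p = 0.0297) for Osmr, 0.66 ± 0.13 (adjusted p = 0.0222) for Lifr and 0.56 ± 0.14 (adjusted p = 0.0492) for Il6st. Osmr was at 428 to 695 in control non pregnant and 803 to 1027 in HF pregnant mice, without overlap. Lifr did not overlap either, whereas Il6st did, at 1924 to 3148 against 2881 to 3784. The calls passed in 5, 4 and 2 of the 10 fits with a mouse left out. The aryl hydrocarbon receptor Ahr was higher by 0.36 ± 0.08 (adjusted p = 0.042), and was called in 1 of those fits, as was its target Cyp1a1, which did not pass with intensities under 100 set to 100. A further target, Cyp1b1, was at 1.19 ± 0.30 (adjusted p = 0.0619) and overlapped, with control non pregnant mouse 5 (736.5) above HF pregnant mouse 5 (646). A second Cyp1b1 probe set gave 0.86 (adjusted p = 0.174). The receptor kinase Mertk (0.61), transglutaminase Tgm2 (0.68) and the transcription factor Maf (0.65) were called higher, in 4, 5 and 3 of those fits, and the groups overlapped in Mertk. The scavenger receptor Marco was at 4475, 4245, 6083, 4242 and 448 in HF pregnant mice and 188, 70.3, 875, 927 and 2807 in control non pregnant mice, and did not pass (2.57 ± 1.09, adjusted p = 0.227).

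Carriers and enzymes beside the lipogenic route were lower. The mitochondrial pyruvate carrier subunit Mpc1 had a log2 fold change of -1.56 ± 0.30 (adjusted p = 0.0189), the dicarboxylate carrier Slc25a10 one of -1.53 ± 0.34 (adjusted p = 0.0353), and the mitochondrial glycerol phosphate dehydrogenase Gpd2 one of -1.25 ± 0.30 (adjusted p = 0.0495). The reductase Tecr, which completes the elongation cycle that Elovl6 starts, changed by -1.39 ± 0.28 (adjusted p = 0.027), and Nat8l, which makes N-acetylaspartate, by -1.56 ± 0.38 (adjusted p = 0.0491). Prostaglandin E synthase (Ptges, -1.89) and the parathyroid hormone receptor (Pth1r, -1.93) were lower too. Each was called in 1 to 4 of the 10 fits with a mouse left out. Of the remaining lists, the circadian clock had 0 called of 15 (median -0.37), with Dbp at -1.62 ± 0.75 (adjusted p = 0.258), and the immediate early and heat shock genes 0 of 21 (median 0.22). The antioxidant list had Gpx3 higher and Gsta3 lower of 28 (median -0.07), and the apolipoproteins had Apoe higher of 14 (median 0.23). None of these groups was tested as a group.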
